A study of Homo sapiens with 4 samples.

Results

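The genes described here handle the lipid droplet and the triglyceride stored in it. They are HILPDA, PLIN2, PLIN3, PNPLA2, G0S2, FABP5, VLDLR, LPIN1, DGAT1 and DGAT2, chosen by name with earlier results of these data known. Every probe set that the platform annotation assigns to exactly 1 of them was taken, which gave 16 of the 54613 probe sets and 10 of the 19775 genes with such a probe set. A probe set is a group of short oligonucleotides on the array that reads one transcript or a few. No probe set shared a member with another gene.

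The samples were cells of KYSE170, an established line of human oesophageal squamous cell carcinoma, grown in RPMI 1640 medium with 10% foetal bovine serum and antibiotics in both groups. One group was left untreated (2 arrays). The other was given EDHB, ethyl-3,4-dihydroxybenzoate, at 50 µg/ml, and was taken after 12 h (2 arrays). No time is recorded here for the untreated arrays, and no solvent control is named. EDHB blocks prolyl hydroxylases, among them the iron-dependent enzymes through which oxygen leads to the breakdown of hypoxia-inducible factors. The study sought the expression profile of the treated line, and each comparison below sets EDHB against untreated cells. All values come from this single line, the labels do not say whether the 2 arrays of a group were separate cultures, and p-values therefore measure the spread between these arrays, which may be technical. In such bulk RNA, fewer cells of a kind and less RNA per cell cannot be told apart.

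A lipid droplet is a core of triglyceride and sterol ester under a single phospholipid layer, held in the cytosol and coated by proteins of the perilipin family. Cells build triglyceride stepwise from glycerol phosphate and activated fatty acids. They break it down again by lipolysis, whose rate-limiting enzyme is the lipase encoded by PNPLA2. Cells short of oxygen are known to collect lipid droplets, and HILPDA, PLIN2, VLDLR and LPIN1 are each known as genes that hypoxia-inducible factors can induce.

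The values of the second replicate stood in another row order than the first in the deposited table, and the order had to be restored from the levels of the untreated arrays. This gave 4 array values for 15 of the 16 probe sets and for 9 of the 10 genes. The exception was VLDLR, whose replicate 2 value could not be settled. Changes within replicate 1 (EDHB 1 minus untreated 1) do not need the restored order and are given for every gene. Over all genes, limma with Benjamini-Hochberg adjustment called 2 of 19751 genes (0.0101%) at an adjusted p under 0.05, and it called 375 (1.90%) when its prior variance followed intensity. Of squamous epithelial markers, SOX2 lay at a mean log2 level of 8.88 in untreated cells, DSC3 at 8.35 and PKP1 at 8.51. KRT14, also a squamous marker, lay at only 3.75, below the median probe set of 4.54. TP63, KRT17 and KRT6A were not analysed here. Summed linear intensity lay between 104 and 112 on all arrays for the 7 adipocyte markers and between 64.6 and 69.6 for the 5 leukocyte and macrophage markers. The sum was 117 to 122 for the 6 hepatocyte markers and 139 to 153 for the 6 fibroblast markers. It was 10215 to 11361 for the 7 squamous ones, but most of that sum came from a single gene, S100A2. Its mean log2 level was 13.21 in untreated cells and 13.16 in EDHB, while KRT5 and DSG3 lay at 6.43 and 5.89 in untreated cells. The fibroblast marker COL1A1 also lay at 6.43 in untreated cells.

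Within replicate 1, VLDLR had the largest change of the 10 genes, and LPIN1 came next. VLDLR went from a linear intensity of 18.9, which was not shown to be above background, to 80.2, a ratio of 4.23 whose size is therefore uncertain. LPIN1 was higher in both replicates and in each of its 3 probe sets, with a fitted difference of 0.72 log2 units (1.65-fold) over 2 and 2 arrays. The other 8 genes with 4 array values, HILPDA and PLIN2 among them, lay between -0.18 and 0.22 log2 units. None of the 9 genes with a fit passed the threshold in limma over all genes, where 2 had an unadjusted p under 0.05 against a background of 16.8%, and 0.0101% of all genes were called. With the intensity trend LPIN1 passed and the other 8 did not, where 1.07% of all genes were called higher and 0.830% lower.

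**Figure D1:**
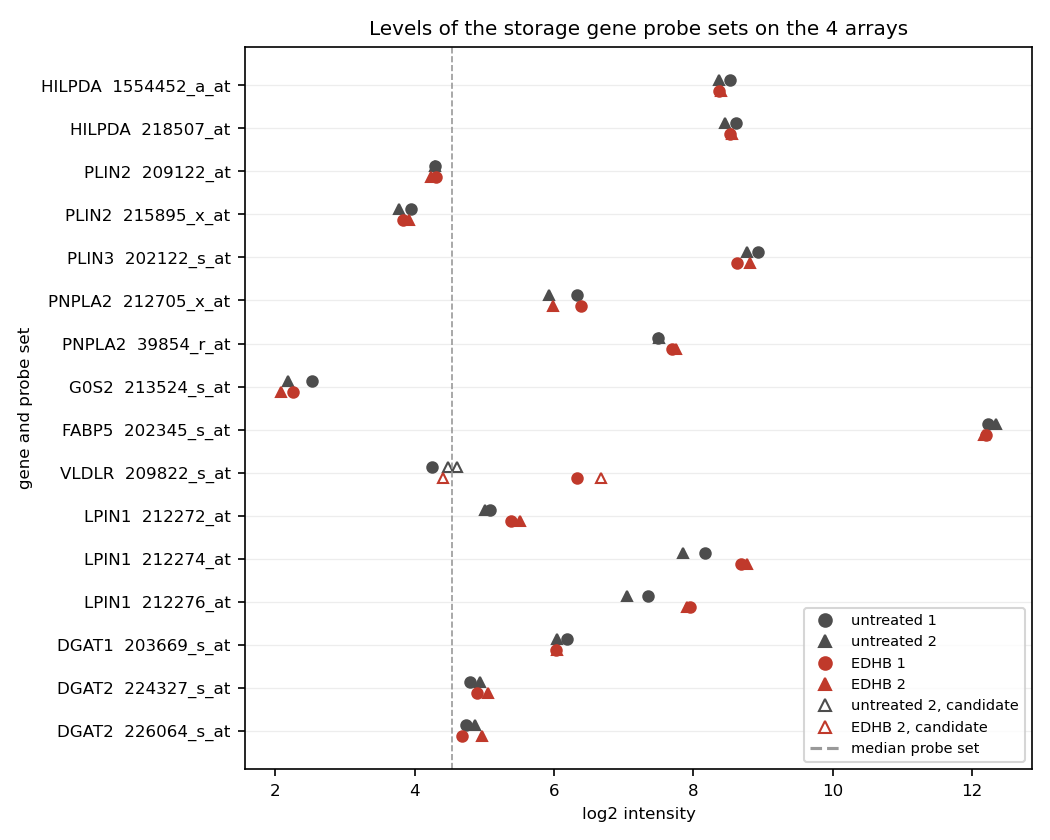
Log2 intensity (horizontal axis) of each probe set (vertical axis) on the 4 arrays, with untreated in grey and EDHB in red, circles for replicate 1 and triangles for replicate 2. Open triangles are the candidate replicate 2 values of VLDLR and the dashed line is the median probe set (4.54). The EDHB points lie to the right of the untreated ones for LPIN1 in all 3 probe sets and for the brighter PNPLA2 probe set. Within replicate 1 they also do so for VLDLR.

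The first members take lipid into the cell and carry it. VLDLR, the very low density lipoprotein receptor, binds triglyceride-rich lipoproteins at the cell surface. Its single probe set had a log2 level of 4.24 in untreated 1 and of 6.32 in EDHB 1, a change of 2.08. No signal above background was shown for the untreated level, which was under that of the median probe set, and the size of the fold is uncertain. Only 9 of 54613 probe sets had a larger increase within replicate 1, where 89 (0.163%) were at least 2-fold higher.

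For replicate 2, the restoring left VLDLR with a pair of candidate values that it shared with the next probe set in ID order. In one (posterior 0.504) VLDLR had log2 levels of 4.48 in untreated 2 and 6.68 in EDHB 2, a change of 2.20. In the other (posterior 0.496) the levels were 4.61 and 4.41, a change of -0.21. The next probe set had nearly the same untreated 1 level (4.21) and a change of 0.01 within replicate 1. When the levels of the EDHB arrays were compared as well, an alternative added after seeing the data, the first candidate went to VLDLR with a posterior over 0.95. That choice favours a replicate 2 change like that of replicate 1, so agreement between the replicates cannot be read from it. No fitted change is given for VLDLR.

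The promoter of VLDLR is shown because the gene had the largest change. The letters are the 250 bases before the start of the gene in RefSeq (GRCh38.p14, chr9:2621537-2621786, plus strand), 5′ to 3′. Capitals mark the core of the hypoxia response element, ACGTG or GCGTG, on either strand (CACGT or CACGC when read on the other strand), and neighbouring matches can overlap.
VLDLR: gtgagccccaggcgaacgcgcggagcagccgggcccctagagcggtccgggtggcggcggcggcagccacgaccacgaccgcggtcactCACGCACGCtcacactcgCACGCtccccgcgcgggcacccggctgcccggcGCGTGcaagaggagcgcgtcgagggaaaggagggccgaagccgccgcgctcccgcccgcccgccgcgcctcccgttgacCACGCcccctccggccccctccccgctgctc
This window held 5 matches, all of them GCGTG on one strand or the other. Of 35116 windows of the same length in the table, 43.2% held at least 1 match and 1.36% held 5 or more. A match is a description of the letters and not a binding site.

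FABP5, a fatty acid binding protein of epithelial cells that carries fatty acids in the cytosol, differed little. Its probe set had log2 levels of 12.23 and 12.35 in untreated cells and 12.20 and 12.17 in EDHB. Both EDHB values lay below both untreated ones, as they did for 22.5% of all genes. The difference was -0.10 ± 0.08 (SE, n = 2 and 2; adjusted p = 0.60 in limma), with -0.03 within replicate 1 and -0.18 within replicate 2. FABP5 has processed pseudogenes of like sequence, and a probe set of this kind can read them too.

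Among the enzymes that build triglyceride, LPIN1 stood apart from DGAT1 and DGAT2 in its values. LPIN1 encodes lipin 1, a phosphatase that turns phosphatidate into diacylglycerol, the step before the last. On its brightest probe set the log2 levels were 8.16 and 7.86 in untreated cells and 8.69 and 8.78 in EDHB. Every EDHB value was above every untreated value, which 23.2% of all genes showed. The difference was 0.72 ± 0.12 (SE, n = 2 and 2), with a 95% interval from 0.40 to 1.04, or 1.32-fold to 2.06-fold. By size of change, this placed LPIN1 at rank 169 of 19751 genes. Strongly changed probe sets are under-represented among these, since many were not restored, so some larger changes can be missing from this rank. The adjusted p was 0.125 in limma without a trend and 0.0436 with the intensity trend, so the call depends on how the prior variance is set.

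A second LPIN1 probe set gave nearly the same picture, with 7.35 and 7.06 in untreated cells and 7.95 and 7.91 in EDHB, a difference of 0.73. The third went from 5.08 and 5.01 to 5.38 and 5.52, a difference of 0.41. All 3 probe sets were separated between the groups, and in each the change was larger within replicate 2 (0.92, 0.85 and 0.51) than within replicate 1 (0.53, 0.60 and 0.31). The lower untreated 2 value made most of that gap on the 2 brighter probe sets, since the EDHB arrays differed by at most 0.09 there. With untreated 2 left out the difference was 0.57, and with untreated 1 left out it was 0.87 (adjusted p = 0.397 and 0.346 in limma).

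RefSeq lists 3 start sites for LPIN1 in the table, and 1 of the 3 windows held a match to the same core letters (GRCh38.p14, chr2:11724065-11724314, plus strand). LPIN1 is shown beside VLDLR because these genes had the highest values under EDHB relative to untreated cells. Of its windows only the one with a match is printed, and 43.2% of all windows held at least 1 match.
LPIN1: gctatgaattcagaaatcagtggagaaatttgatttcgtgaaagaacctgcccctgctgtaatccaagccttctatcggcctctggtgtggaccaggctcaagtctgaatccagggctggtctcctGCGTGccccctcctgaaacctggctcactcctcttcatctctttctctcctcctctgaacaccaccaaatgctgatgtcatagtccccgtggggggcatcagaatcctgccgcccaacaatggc
The single match, GCGTG, began at position -124 from that start. The array does not tell which start was used.

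**Figure D2:**
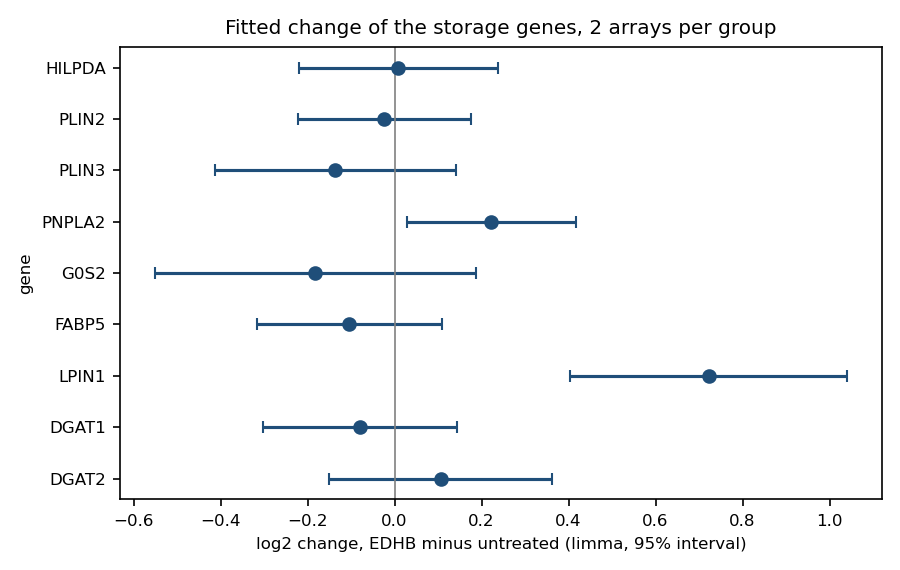
Fitted log2 change, EDHB minus untreated (horizontal axis), of each of the 9 genes with 4 array values (vertical axis), with its 95% interval from limma over 2 arrays per group. VLDLR is not plotted. LPIN1 (0.40 to 1.04) and PNPLA2 (0.03 to 0.42) have intervals above 0 before adjustment, and those of the 7 other genes include 0.

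DGAT1 and DGAT2 encode unrelated enzymes that both carry out the last step, joining the last fatty acid to diacylglycerol. DGAT1 had log2 levels of 6.19 and 6.04 in untreated cells and 6.03 and 6.04 in EDHB, a difference of -0.08 ± 0.09 (SE, n = 2 and 2). DGAT2 had levels of 4.80 and 4.94 against 4.90 and 5.05 on its brighter probe set, a difference of 0.11 ± 0.10. The groups overlapped for both. The 95% intervals ran from 0.810-fold to 1.11-fold for DGAT1 and from 0.901-fold to 1.29-fold for DGAT2, and the adjusted p values in limma were 0.718 and 0.666. The other probe set of DGAT2 differed by 0.01. Both DGAT2 probe sets lay only just above the median probe set.

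The droplet coat proteins PLIN2 and PLIN3 did not pass the test. PLIN2, the perilipin that covers droplets in most cell types and is degraded when it is not bound to one, had log2 levels of 4.29 and 4.29 in untreated cells and 4.31 and 4.23 in EDHB on its brighter probe set. The other gave 3.95 and 3.78 against 3.84 and 3.93. The groups overlapped on both probe sets, and both lay below the median probe set on every array, so no level above background was shown for PLIN2 and a change in it could be missed. The fitted difference was -0.02 ± 0.08 (SE, n = 2 and 2; adjusted p = 0.922 in limma).

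The PLIN2 promoter is shown too, since it also held matches to the core. It is no contrast to VLDLR, because a change in PLIN2 could be missed at its low level. The letters are the 250 bases before the start in RefSeq (GRCh38.p14, chr9:19127493-19127742, minus strand), with capitals as before.
PLIN2: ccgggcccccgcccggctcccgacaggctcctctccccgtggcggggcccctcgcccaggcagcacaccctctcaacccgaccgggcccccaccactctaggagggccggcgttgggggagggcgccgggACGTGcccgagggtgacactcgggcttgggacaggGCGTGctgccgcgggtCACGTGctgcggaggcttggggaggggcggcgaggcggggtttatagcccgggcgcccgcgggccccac
It held 4 matches, 3 of them ACGTG on one strand or the other, and 2 of these overlap in the palindrome CACGTG. Of all windows, 3.22% held 4 or more matches, and 18.5% held at least 1 ACGTG on either strand. Windows were matched for 6 of the 10 genes, and G0S2, PLIN3 and PNPLA2 held 4, 3 and 0 matches.

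PLIN3, a perilipin that moves between the cytosol and young droplets, had levels of 8.94 and 8.77 in untreated cells and 8.62 and 8.81 in EDHB, and the groups overlapped. It was lower by 0.31 within replicate 1 and higher by 0.04 within replicate 2. The fitted difference was -0.14 ± 0.11 (SE, n = 2 and 2; adjusted p = 0.594 in limma).

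Lipolysis is represented by the lipase and by 2 small proteins that inhibit it. PNPLA2, adipose triglyceride lipase, takes the first fatty acid off triglyceride. Its brighter probe set had log2 levels of 7.50 and 7.50 in untreated cells and 7.69 and 7.75 in EDHB, so the groups did not overlap. The difference was 0.22 ± 0.08 (SE, n = 2 and 2), 1.17-fold, with an adjusted p of 0.251 in limma. The second PNPLA2 probe set is of a type that can bind other transcripts, and the specificity of the brighter one was not checked either. It followed the replicate number rather than the treatment, with 6.32 in untreated 1 and 6.39 in EDHB 1 but 5.94 and 5.99 in the replicate 2 pair. Its difference was 0.06 ± 0.19. For the mean of the PNPLA2 probe sets the difference was 0.14 (adjusted p = 0.570 in limma), so the size depends on the probe set.

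HILPDA, a small droplet protein that binds and inhibits this lipase, showed little difference although it was well above the median probe set. Its brighter probe set had log2 levels of 8.61 and 8.46 in untreated cells and 8.52 and 8.56 in EDHB. The other had 8.53 and 8.37 against 8.37 and 8.39. The groups overlapped on both. The fitted difference was 0.01 ± 0.09 (SE, n = 2 and 2; adjusted p = 0.982 in limma), and its 95% interval ran from 0.858-fold to 1.18-fold, which leaves out a change of 1.5-fold either way. Replicates disagreed in sign, with -0.09 within replicate 1 and 0.11 within replicate 2.

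G0S2, the other inhibitor of the lipase and a gene of the fat cell, had log2 levels of 2.53 and 2.18 in untreated cells and 2.26 and 2.08 in EDHB. These overlapped and lay below the median probe set, and no level above background was shown. The fitted difference was -0.18 ± 0.14 (SE, n = 2 and 2; adjusted p = 0.594 in limma).

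**Figure D3:**
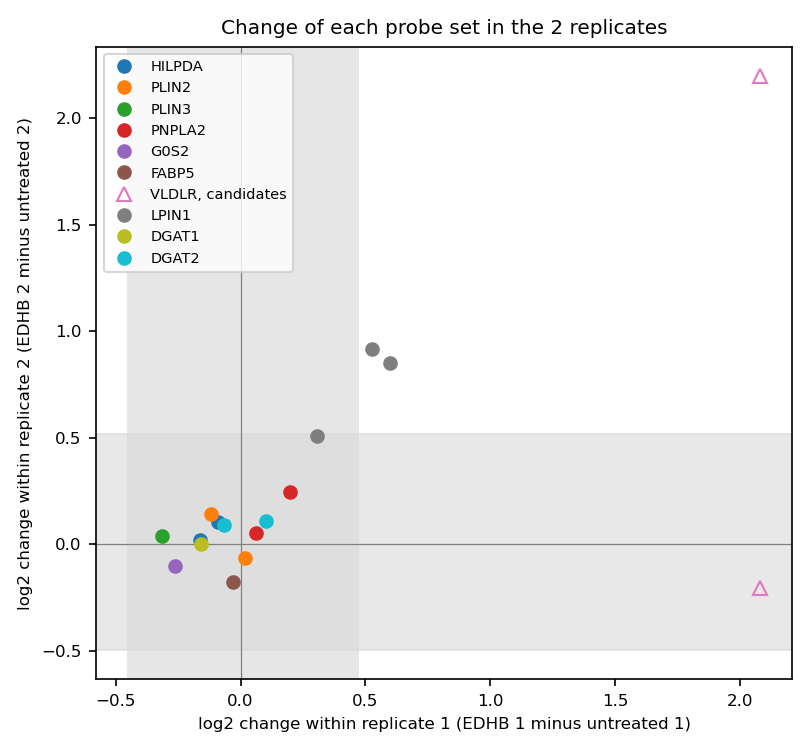
Log2 change within replicate 1 (horizontal axis) against that within replicate 2 (vertical axis) for each probe set, coloured by gene, with open triangles at the candidate values of VLDLR. Grey bands hold the middle 95% of all probe sets in each replicate (-0.45 to 0.47 and -0.50 to 0.52). Of the 3 LPIN1 probe sets, 2 lie beyond both bands, and the points of the other genes with restored values lie within them. VLDLR lies beyond the replicate 1 band, and its candidates lie beyond (2.20) and within (-0.21) that of replicate 2.

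Across the 15 restored probe sets, 8 had the same sign of change in both replicates and 7 did not. Of all genes, each read from its brightest probe set, 62.1% had the same sign. The units differ, since several members count with more than 1 probe set, and the share over all probe sets was not counted. Both EDHB values were above both untreated ones in 4 probe sets, 3 of them from LPIN1, and below in 1. By gene, 2 of 9 were separated upwards and 1 downwards, where 23.2% and 22.5% of all genes were. That makes 3 of 9 without overlap, against 45.8% of all genes. The median change of the 9 genes was -0.02 and that of all genes was -0.001. For 8 of the 9, the 95% interval of the change lay within 1.5-fold either way, and LPIN1 was the one whose interval did not. The share of all genes with such an interval was not counted, so this is no trait of these genes. PLIN2 and G0S2 are among the 8, and a change in them could be missed at their low levels.

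The genes most like LPIN1 were named by the distance between log2 levels centred on each gene's mean over the 4 arrays, among 12399 genes brighter than the median probe set. They were FAM20C (0.05), INSR (0.06), the insulin receptor, and PNPLA8 (0.07), a phospholipase of the same family as PNPLA2. These differed by 0.70, 0.78 and 0.69 log2 units between EDHB and untreated cells. PNPLA2 was closest to CCDC126, ZFP64 and PPP1R3D (0.01 to 0.02), which differed by 0.21 to 0.22. Genes at a small distance must have a like change, so the nearness of these values was set by the choice.

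The wider pathway was described with 7 lists of 98 genes in all, of which 90 were measured. None was called in limma over all genes, 13 of 90 had an unadjusted p under 0.05 (16.8% of all genes), and 1 was called higher with the intensity trend (1.07%). Both EDHB values were above both untreated ones in 27 (23.2% of all genes) and below in 23 (22.5%) of the 90 genes. Their median change was 0.04, with a range from -0.42 to 0.78.

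The gene called with the trend was PPARD, a nuclear receptor that binds fatty acids and controls genes of their use. Its log2 levels were 7.65 and 7.90 in untreated cells and 8.44 and 8.68 in EDHB, a difference of 0.78 ± 0.13 (SE, n = 2 and 2; adjusted p = 0.125 in limma without and 0.0425 with the trend). Of the 14 measured lipid regulators, 7 were separated upwards and 2 downwards, with a median of 0.10, where 23.2% and 22.5% of all genes were. No test of the list was made. The relatives of PPARD were PPARA, with 5.33 and 4.79 against 5.51 and 5.50, and PPARG, which overlapped with a difference of -0.04.

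Of the other enzymes of triglyceride synthesis, 5 of 17 measured were separated upwards and 6 downwards (median 0.05; 23.2% and 22.5% of all genes), and none was called in either fit. AGPAT2, which adds the second fatty acid, differed by 0.28, with levels of 7.39 and 7.22 against 7.57 and 7.60. GPAM, the mitochondrial enzyme of the first step, differed by -0.26, with 7.70 and 7.83 against 7.59 and 7.42. The relatives of LPIN1 gave little difference, with 0.10 for LPIN2 and -0.09 for LPIN3, the latter below the median probe set.

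Of 8 measured lipolysis genes, 3 were separated upwards and 4 downwards (median -0.03; 23.2% and 22.5% of all genes), none called in either fit. PNPLA3, a droplet protein related to PNPLA2, had levels of 6.71 and 6.70 in untreated cells and 6.98 and 7.19 in EDHB, a difference of 0.38. UBXN8, which the list held although it is not an established lipolysis gene, differed by -0.42, from 6.88 and 6.61 to 6.38 and 6.26. Without it, 3 of 7 lipolysis genes were separated upwards and 3 downwards, with a median of 0.04. ABHD5, the coactivator of the PNPLA2 lipase, differed by 0.13.

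The 17 measured genes of the droplet coat and its assembly had a median of -0.01, and 5 were separated upwards and 4 downwards (23.2% and 22.5% of all genes). SPART and HSD17B11, both found on droplets, had the largest differences among those brighter than the median probe set, 0.23 and 0.22. Of the perilipins of fat and muscle, PLIN1 lay below the median probe set (4.23 and 4.43 on average). Its groups did not overlap, with a difference of 0.20 (adjusted p = 0.343 in limma), while PLIN4 and PLIN5 overlapped between groups. Of the 14 genes of fatty acid and lipoprotein uptake (median -0.004), the transporters SLC27A4 and SLC27A5 differed by -0.29 and -0.25. LRP8, the closest relative of VLDLR among them, had 7.75 and 7.59 against 7.81 and 7.77, a difference of 0.12.

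Fatty acid oxidation, the other fate of fatty acids, had 17 measured genes with a median of 0.01. CPT1A, which lets fatty acids into the mitochondrion, differed by -0.29, from 10.09 and 9.79 to 9.69 and 9.62, and HADH by 0.15. Of sterol ester storage, SOAT1 and NCEH1 differed by 0.13 and -0.11 with overlapping groups. No gene of these 2 lists, of the coat list or of the uptake list was called in either fit.

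**Figure D4:**
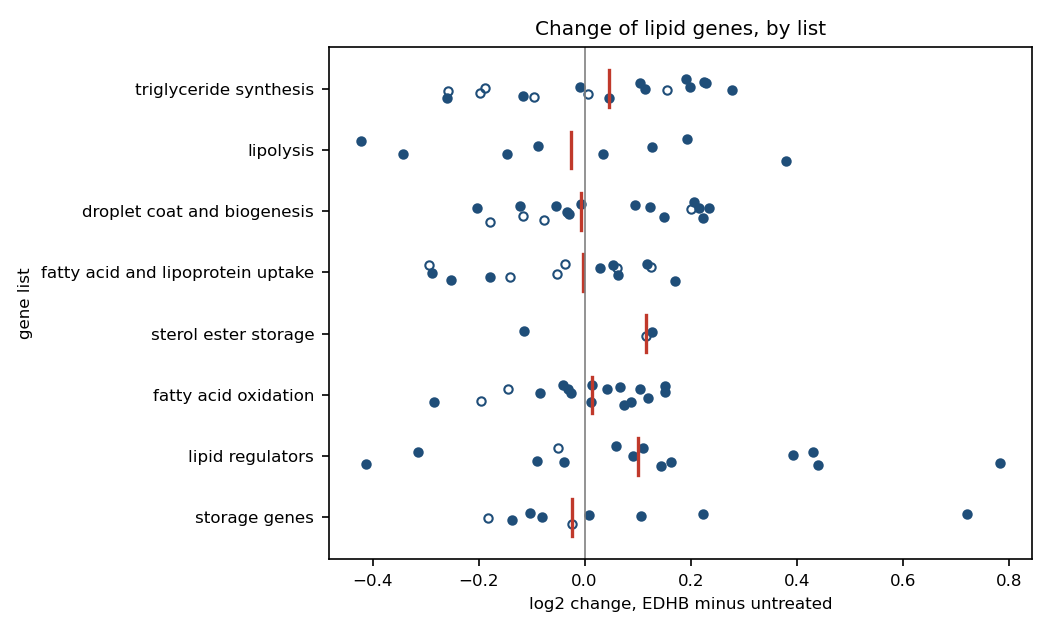
Log2 change, EDHB minus untreated (horizontal axis), of the measured genes of each list (vertical axis), with filled points for genes brighter than the median probe set, open points for dimmer ones and a red bar at the list median. All medians lie between -0.03 and 0.12, and the points farthest to the right are PPARD (0.78) and LPIN1 (0.72). VLDLR is not plotted.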

How the data were processed

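Total RNA of 4 samples was biotin-labelled for Affymetrix arrays, according to the labels' protocols. Each value of the deposited table is a linear intensity for 1 probe set on 1 array, and the submitters' processing notes name RMA, without a version. The genome build is not given in the sources used here. This normalisation equalises the arrays' distributions, which removes any global difference and compresses small levels. Intensities (1.55 to 13393, array medians 23.3 to 23.5) were turned into log2 values. Precision is limited by having 2 arrays in each group. The annotation gave 41091 probe sets 1 gene, 1801 several and 11721 none, and 54 probe sets with 1 gene had a symbol with no RefSeq match.

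The replicate 2 columns stood in another row order. Their values matched sheets sorted replicate by replicate (2-fold higher, 2-fold lower, an empty row, the rest, each in ID order), laid side by side and sorted by the replicate 1 IDs, which is an inference recorded in no label. A forward-backward alignment compared untreated levels only (t density, scale 0.15, 3 degrees of freedom; Python 3.11.15, numpy 2.4.6, numba 0.67.0) and restored 54463 probe sets (99.7%) at a posterior of at least 0.95. Across probe sets, the changes of the replicates correlated at 0.04 before and 0.38 after. Of the replicate 2 values past 2-fold, 93 of 148 higher and 22 of 45 lower ones were restored, so strongly changed probe sets are under-represented. With EDHB levels compared as well, 7 of 54459 probe sets restored both ways got another value.

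Each gene was read from its brightest restored probe set with 1 gene. EDHB and untreated arrays were compared with limma 3.58.1 in R 4.3.3 (lmFit, eBayes, Benjamini-Hochberg over 19751 genes, threshold 0.05). Both steps were tested on simulated data drawn with the sheet layout, the error density and the prior variance that they assume. Such tests cannot check these assumptions. Promoters came from RefSeq GRCh38.p14. The genes named were all members, list genes called with or without the trend, otherwise the 2 with the largest change above the median probe set in each list, and the 3 nearest genes of the 2 most changed members with a fit. PPARA, PPARG, LPIN2, LPIN3, ABHD5, LRP8 and the perilipins outside the members were added for their kinship or function after values were seen. The members and lists were chosen with earlier results of these data known.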

Additional observations from a re-analysis of the deposited data

How the results depend on the processing

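LPIN1, PLIN3, PNPLA2, G0S2, FABP5, DGAT1 and DGAT2 kept their direction under every alternative run, but several came close to 0. With each array left out in turn, G0S2 ranged from -0.355 to -0.00927, DGAT1 from -0.155 to -0.00423, PLIN3 from -0.232 to -0.0417 and DGAT2 from 0.0276 to 0.184. The replicate 2 pair was not run alone, and within it PLIN3 (0.0401) and DGAT1 (0.000728) had the opposite sign. LPIN1 ranged from 0.53 (replicate 1 pair alone) to 0.87, with adjusted p values from 0.0427 to 0.576. It passed in limma with the intensity trend and with dim probe sets left out, which made the count of members called 1 in each case instead of 0. The cause was not tested. The SE of LPIN1 was 0.124 as reported, 0.111 with the trend and 0.116 with dim probe sets left out. The last setting also tests fewer genes. HILPDA changed sign at values near 0: -0.031 for the mean of its probe sets, -0.0899 in the replicate 1 pair, and -0.0696 to 0.0869 with each array left out in turn. PLIN2 did so at 0.0173 in the replicate 1 pair and ranged from -0.0649 to 0.0174 with each array left out.

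Over all genes the count of 2 (2 higher, 0 lower) became 375 (211 higher, 164 lower) with the intensity trend and 426 (265, 161) with dim probe sets left out. It was 40 (30, 10) after median centring, 7 (5, 2) after cyclic loess, 79 (51, 28) with an offset of 16, and 37 (22, 15) for the mean of probe sets. It was 0 in limma with a posterior minimum of 0.5, with EDHB levels compared as well and without any 1 array (0 to 0), where the lone array left in a group is taken to vary as the other group does. Tested singly, 0 probe sets were called in limma (7317 at an unadjusted p under 0.05), 56 with the trend and 415 with dim ones left out. The groups share replicate numbers, and same-numbered deviations correlated at 0.21 across genes, but 2 pairs and no label do not show a pairing. With the replicate block 0 genes, 0 members and 0 probe sets were called.

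Low signal limits PLIN2, G0S2 and untreated VLDLR, and the unsettled replicate 2 value limits VLDLR.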
